A study of Mus musculus with 6 samples.

Results

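The genes described here are 43 type I interferon-stimulated genes, a list of antiviral effectors, nucleic acid sensors and signalling factors. They were read out in RNA-seq libraries labelled as mouse tumour neutrophils. They were chosen by name, with GENCODE M21 gene symbols, from the 21959 genes of the deposited table, and all 43 were found. The libraries fall into 3 labelled GPR35-positive and 3 labelled GPR35-negative, all 6 labelled as neutrophils of mouse tumour models grown from Hepa1-6, a mouse hepatoma cell line. GPR35 is a G protein-coupled receptor. The labels give no strain, age, treatment or gate for either group. Nothing in them says that replicates are separate animals, and the spread behind every p-value may therefore be technical. The question is how transcripts differ between the libraries labelled GPR35-positive and those labelled GPR35-negative.

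Type I interferons bind the receptor formed by IFNAR1 and IFNAR2, whose kinases JAK1 and TYK2 start a signal that runs through a complex of STAT2 and IRF9. This complex binds the interferon-stimulated response element, a DNA motif before many of the genes listed here. The products block viral entry, translation and replication, sense foreign RNA and DNA, or limit the signal. Many myeloid cells hold a low level of such transcripts without infection, and hepatocytes and other epithelial cells can also express them.

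Of the 43 genes, 36 were higher in all 3 GPR35-positive libraries than in any GPR35-negative library, 3 were lower in all of them, and 4 overlapped. The increases ran up to 11.2-fold in mean FPKM, the deposited unit, fragments scaled to gene length and library depth, while the decreases were small. The limma test took genes that reached 1 FPKM in 3 or more libraries and was run on log2(FPKM + 1); a gene was called at an adjusted p under 0.05. Among the 38 that reached this filter, 32 rose, 3 fell and 3 did not pass. Of all 10060 genes tested, 23.3% were called higher and 45.5% lower. For the 38, the groups were apart in the higher direction for 32 and in the lower for 3, and overlapped for 3. Groups did not overlap in 24.3% of all genes tested in the higher direction and in 48.2% in the lower. These shares were not counted over genes below the filter. The median log2 fold change was 1.14 for the 38 genes and −0.19 for all genes tested. With a ratio of mean FPKM of at least 2 as well, 24 of the 38 rose, against 13.2% of all genes tested. Of the 38, 8 reached the filter through the GPR35-positive libraries alone and could hardly have been called lower. With no filter, 35 of the 43 rose and 2 fell, the median log2 fold change being 0.93, against 17.4% and 22.1% of 19818 genes. With median-of-ratios scaling, which moved the median of all genes tested to −0.03, 34 of the 38 rose and 0 fell, so the small decreases depend on the scaling. In the fit of all genes that scaling called 29.0% higher and 23.9% lower, and brought the share of calls that were higher to 54.82%, against 33.86% as deposited. With that scaling, limma called 0 of the 38 lower at an adjusted p under 0.05 and 0 at an unadjusted p under 0.05, and limma-voom on recovered reads called 3 lower without that scaling.

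**Figure D1:**
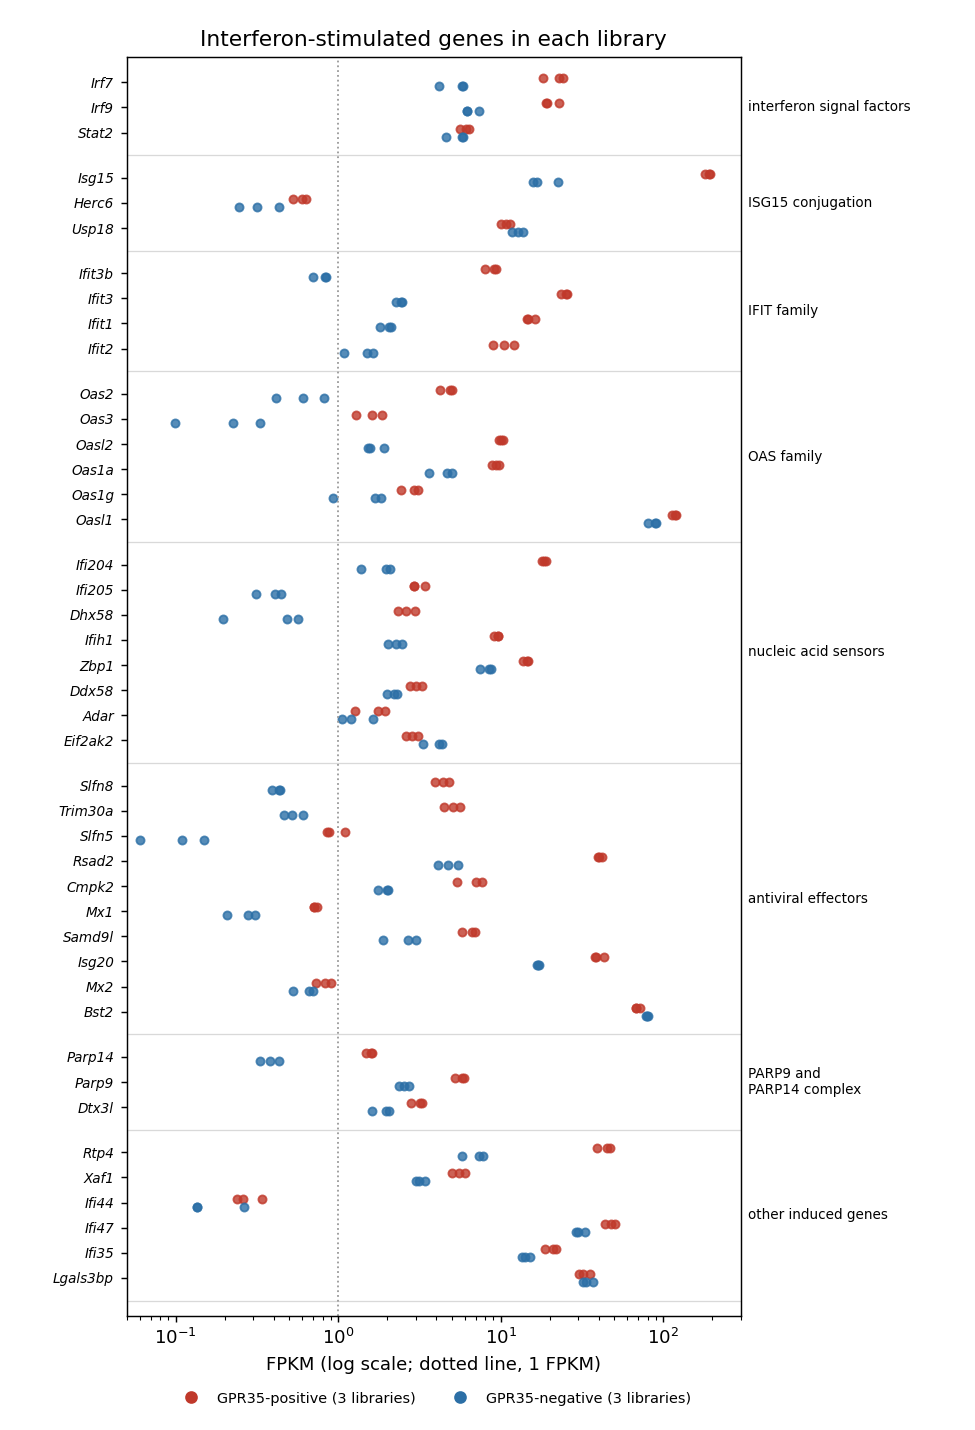
FPKM of the 43 interferon-stimulated genes in each library, on a log axis, grouped by role and ordered within each role by the ratio of mean FPKM. Each point is 1 library, with 3 GPR35-positive and 3 GPR35-negative libraries a gene. The points separate widely for the IFIT genes and for Isg15 and overlap for Stat2, Adar, Ifi44 and Lgals3bp.

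The libraries held transcripts of hepatocyte and macrophage marker genes beside those of neutrophils, and the level of leukocyte markers differed between the groups. Summed levels of 15 pan-leukocyte markers were 2689 to 2801 FPKM in GPR35-positive and 235 to 324 FPKM in GPR35-negative libraries, and all 15 rose. Summed levels of 10 mature neutrophil markers were 8231 to 9154 FPKM in GPR35-positive and 745 to 973 FPKM in GPR35-negative libraries, and all 10 rose. Summed levels of 10 macrophage markers were 945 to 976 FPKM in GPR35-positive and 36.9 to 50.3 FPKM in GPR35-negative libraries, and 9 of 9 tested rose. Of these, Adgre1, Csf1r, Mrc1 and Ms4a7 stayed under 1 FPKM in every GPR35-negative library, like the pan-leukocyte marker gene Was. Such genes reached the filter of the test through the GPR35-positive libraries alone and could hardly have been called lower. Summed levels of 10 hepatocyte and hepatoma markers were 16371 to 16764 FPKM in GPR35-positive and 24558 to 25889 FPKM in GPR35-negative libraries, and 9 fell. In every library this sum was above that of the 10 mature neutrophil markers, and by far the most in GPR35-negative libraries. The 7 plasmacytoid dendritic cell markers summed to 5.20 to 5.56 FPKM in GPR35-positive and 7.01 to 8.47 FPKM in GPR35-negative libraries, and the 6 conventional dendritic cell markers to 22.1 to 23.6 FPKM in GPR35-positive and 8.74 to 11.6 FPKM in GPR35-negative libraries. The 6 T and NK cell markers summed to 5.61 to 6.31 FPKM in GPR35-positive and 5.52 to 7.09 FPKM in GPR35-negative libraries, and the 4 B cell markers to 1.02 to 1.14 FPKM in GPR35-positive and 0.392 to 0.730 FPKM in GPR35-negative libraries. The 4 endothelial markers summed to 4.10 to 5.03 FPKM in GPR35-positive and 2.89 to 3.61 FPKM in GPR35-negative libraries, and the 4 fibroblast markers to 14.2 to 21.0 FPKM in GPR35-positive and 9.25 to 12.8 FPKM in GPR35-negative libraries. Most of the plasmacytoid sum was Tcf4, a widely expressed gene; in a sum made after the values were seen, the other 6 came to 0.554 to 0.749 FPKM in GPR35-positive and 0.354 to 0.618 FPKM in GPR35-negative libraries. Siglech, a defining marker of plasmacytoid dendritic cells, which are strong producers of type I interferon, was at 0.0484 to 0.0905 FPKM in GPR35-positive and 0.0171 to 0.0523 FPKM in GPR35-negative libraries. In such mixed samples, fewer cells of a type and less RNA per cell cannot be told apart. The part of these markers in the results below was not tested.

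Promoters are shown for some genes with large increases and for some level or lower genes. In RefSeq promoter windows on GRCm38.p6, from 250 bases before each gene's start to 50 after, the core response element was searched as GAAA, any 2 bases and GAAA, or in reverse complement TTTC, any 2 bases and TTTC, on both strands and with overlapping matches allowed. A window was found for 33 of the 43 genes; Usp18, Oas2, Dhx58, Zbp1, Ifi204, Mx1, Mx2, Parp9, Parp14 and Rtp4 had none in the table. A match was present for 17 of the 33, against 3.99% of all 27025 genes with a window. By call, it was present for 13 of 25 genes that rose, both of the 2 that fell with a window (Bst2 and Eif2ak2), 1 of 3 that did not pass and 1 of 3 that were below the filter. The sequences below run 5′ to 3′ on the gene's strand and stop 30 bases after the start, with matches in capitals. Isg15 lies on the reverse strand (chr4:156200789-156201068), Ifit1, Ifit3 and Ifit3b on the forward strand (chr19:34640639-34640918, chr19:34583279-34583558 and chr19:34607707-34607986), Bst2 on the reverse strand (chr8:71537443-71537722), Eif2ak2 on the reverse strand (chr17:78882543-78882822) and Stat2 on the forward strand (chr10:128270248-128270527).
Isg15, which rose 10.3-fold: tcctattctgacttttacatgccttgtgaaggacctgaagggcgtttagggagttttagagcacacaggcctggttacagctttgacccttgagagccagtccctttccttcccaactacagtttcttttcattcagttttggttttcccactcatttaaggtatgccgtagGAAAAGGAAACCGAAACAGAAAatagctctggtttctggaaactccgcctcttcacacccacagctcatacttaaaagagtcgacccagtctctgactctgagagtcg
Ifit1, which rose 7.63-fold: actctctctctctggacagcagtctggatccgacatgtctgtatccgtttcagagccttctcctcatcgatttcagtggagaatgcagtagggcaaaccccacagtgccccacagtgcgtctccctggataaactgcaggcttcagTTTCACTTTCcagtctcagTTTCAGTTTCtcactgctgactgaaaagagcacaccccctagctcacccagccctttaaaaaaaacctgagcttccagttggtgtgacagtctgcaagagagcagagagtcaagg
Ifit3, which rose 10.4-fold: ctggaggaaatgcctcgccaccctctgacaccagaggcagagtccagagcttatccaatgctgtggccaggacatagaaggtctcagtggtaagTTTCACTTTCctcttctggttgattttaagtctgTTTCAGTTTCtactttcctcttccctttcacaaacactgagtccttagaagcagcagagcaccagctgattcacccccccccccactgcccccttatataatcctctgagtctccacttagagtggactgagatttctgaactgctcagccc
Ifit3b, which rose 11.2-fold: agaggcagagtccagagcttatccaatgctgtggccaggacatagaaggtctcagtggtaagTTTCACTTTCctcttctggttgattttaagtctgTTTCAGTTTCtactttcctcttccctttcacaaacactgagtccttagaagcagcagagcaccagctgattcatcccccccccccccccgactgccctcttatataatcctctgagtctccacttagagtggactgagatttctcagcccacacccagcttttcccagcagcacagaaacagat
Bst2, which fell slightly: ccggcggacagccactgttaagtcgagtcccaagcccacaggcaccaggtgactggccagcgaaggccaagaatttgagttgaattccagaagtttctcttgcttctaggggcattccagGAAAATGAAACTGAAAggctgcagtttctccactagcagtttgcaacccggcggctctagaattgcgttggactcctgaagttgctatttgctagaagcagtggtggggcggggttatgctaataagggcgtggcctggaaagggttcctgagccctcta
Eif2ak2, which fell: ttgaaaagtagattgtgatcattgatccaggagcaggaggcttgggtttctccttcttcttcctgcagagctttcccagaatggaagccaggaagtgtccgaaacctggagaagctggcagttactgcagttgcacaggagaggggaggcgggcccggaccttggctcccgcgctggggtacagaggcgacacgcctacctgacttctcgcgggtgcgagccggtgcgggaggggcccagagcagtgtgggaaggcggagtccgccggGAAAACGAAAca
Stat2, which did not pass the test: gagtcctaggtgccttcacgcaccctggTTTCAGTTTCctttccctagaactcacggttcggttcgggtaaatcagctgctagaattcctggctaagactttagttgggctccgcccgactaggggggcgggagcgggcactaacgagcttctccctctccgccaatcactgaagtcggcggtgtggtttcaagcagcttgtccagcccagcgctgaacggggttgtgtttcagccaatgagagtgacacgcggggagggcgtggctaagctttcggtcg
In Isg15, 3 overlapping matches begin 78, 72 and 66 bases before the start. Ifit1 holds matches beginning 104 and 85 bases before the start. Ifit3 holds matches beginning 156 and 122 bases before the start and Ifit3b 188 and 154 bases before it, and over 276 aligned positions their windows were 93.8% identical once shifted by 32 bases. In Bst2, overlapping matches begin 130 and 124 bases before the start. In Eif2ak2, the match begins 18 bases after the start, and in Stat2 it begins 222 bases before it. Every window shown holds a match. Ifit2, Oasl2, Irf7 and Cmpk2, which rose, and Adar and Lgals3bp, which did not pass, had windows without any. The motif was thus both present in and absent from windows of genes whose calls differed. A match is a description of letters and not a site shown to be bound.

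The signalling factors of the pathway divided. Irf7, an interferon regulatory factor that amplifies interferon production, and Irf9, the DNA-binding partner of STAT2, rose, while Stat2 did not pass. Irf7 had 18.2, 24.1 and 22.6 FPKM in the GPR35-positive libraries, against 5.88, 5.80 and 4.14 FPKM in GPR35-negative libraries. The lowest GPR35-positive library was above the highest GPR35-negative one by more than the range within either group. With 1 added to each FPKM, which makes differences of low genes smaller, the change on the log2 scale was 1.86 (SE 0.13, adjusted p = 8.1e-07). Irf9 had 22.6, 19.1 and 19.3 FPKM in the GPR35-positive libraries, against 7.34, 6.17 and 6.20 FPKM in GPR35-negative libraries, and the change on the log2 scale was 1.49 (SE 0.10, adjusted p = 3.35e-07). Stat2 had 5.58, 6.36 and 6.09 FPKM in the GPR35-positive libraries, against 5.76, 5.84 and 4.58 FPKM in GPR35-negative libraries. The groups overlapped, and the log2 fold change of 0.14 (SE 0.10, adjusted p = 0.243) did not pass, though with median-of-ratios scaling it did at 0.31 (adjusted p = 0.0244). Irf9 shares 2.28% of its exon bases with Rnf31 on the same strand, and Irf7 shares 1.19% with Phrf1 on the other strand, where the authors' counting could have moved reads.

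The ISG15 conjugation genes held the most abundant transcript of the list in GPR35-positive libraries and a gene that fell. ISG15 is a ubiquitin-like protein that is joined to other proteins, USP18 removes it and also holds back signalling at IFNAR2, and HERC6 is the mouse ligase that joins it. Isg15 had 191, 180 and 193 FPKM in the GPR35-positive libraries, against 22.5, 16.7 and 15.8 FPKM in GPR35-negative libraries. All 3 GPR35-positive libraries lay close together and far above the others, and the change on the log2 scale was 3.30 (SE 0.11, adjusted p = 2.93e-09). Isg15 made up 22.03% to 22.6% of the summed level of the 43 genes in GPR35-positive libraries and 4.43% to 5.70% in GPR35-negative libraries. Usp18 had 11.3, 10.8 and 9.98 FPKM in the GPR35-positive libraries, against 13.8, 12.7 and 11.8 FPKM in GPR35-negative libraries. The groups did not overlap, but their nearest libraries were close, at 11.3 FPKM in GPR35-positive and 11.8 FPKM in GPR35-negative libraries. Usp18 fell by 0.23 on the log2 scale (SE 0.09, adjusted p = 0.0332), a ratio of 0.839. This call ended with median-of-ratios scaling (−0.05, adjusted p = 0.639), with no filter (adjusted p = 0.0509), and without GPR35-positive replicate 2 or 3 or GPR35-negative replicate 1 or 2 (adjusted p = 0.0629, 0.144, 0.0988 and 0.0810). The counts behind Usp18, read from the steps between FPKM values, were 492 to 542 reads in GPR35-positive and 517 to 663 reads in GPR35-negative libraries, and 4.44% of its exon bases overlap the antisense transcript Gm44148. Herc6 missed the filter, with 0.528 to 0.629 FPKM in GPR35-positive and 0.246 to 0.431 FPKM in GPR35-negative libraries. It shares 13.7% of its exon bases with Gm45193 on the same strand.

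The IFIT family, whose members bind viral RNA and block its translation, rose as a whole, with ratios of 7.46 to 11.2. The 4 genes lie together on chromosome 19 between 34550694 and 34650009 in GRCm38. Ifit3 had 25.6, 23.4 and 25.002 FPKM in the GPR35-positive libraries, against 2.43, 2.47 and 2.26 FPKM in GPR35-negative libraries, and the change on the log2 scale was 2.92 (SE 0.08, adjusted p = 8.34e-10). Ifit3b, a close copy of Ifit3, had 9.37, 7.99 and 9.09 FPKM in the GPR35-positive libraries, against 0.841, 0.826 and 0.699 FPKM in GPR35-negative libraries. Each group was narrow and the gap between groups was wide for both copies. Their coding sequences are 99.1% identical, so the division of reads between them is uncertain. Ifit1 had 14.8, 14.5 and 16.3 FPKM in the GPR35-positive libraries, against 2.12, 1.80 and 2.06 FPKM in GPR35-negative libraries, and the change on the log2 scale was 2.44 (SE 0.09). Ifit2 had 12.1, 8.92 and 10.5 FPKM in the GPR35-positive libraries, against 1.64, 1.503 and 1.08 FPKM in GPR35-negative libraries, and the change on the log2 scale was 2.25 (SE 0.12). Neither Ifit1 nor Ifit2 overlapped between groups, and the adjusted p-values of Ifit3b, Ifit1 and Ifit2 were 4.12e-09, 3.61e-09 and 9.18e-08.

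The OAS genes all rose, but by amounts from 1.35-fold to 7.62-fold. Oligoadenylate synthetases make a messenger that activates RNase L. OASL1 and OASL2 are related proteins, and mouse OASL1 is known to restrain translation of Irf7. Oas2 had 4.20, 4.87 and 4.99 FPKM in the GPR35-positive libraries, against 0.821, 0.610 and 0.414 FPKM in GPR35-negative libraries, and the change on the log2 scale was 1.82 (SE 0.11, adjusted p = 1.61e-07). Oasl2 had 9.97, 10.3 and 9.71 FPKM in the GPR35-positive libraries, against 1.92, 1.52 and 1.57 FPKM in GPR35-negative libraries, and the change on the log2 scale was 2.04 (SE 0.09, adjusted p = 1.36e-08). Oasl1, its neighbour on chromosome 5, had 119, 113 and 117 FPKM in the GPR35-positive libraries, against 89.9, 80.4 and 88.5 FPKM in GPR35-negative libraries. Oasl1 was thus high in every library and its groups were separate but near, and the change on the log2 scale was 0.43 (SE 0.07, adjusted p = 0.000336). Oas3 was low throughout, averaging 1.59 ± 0.288 FPKM in GPR35-positive and 0.217 ± 0.115 FPKM in GPR35-negative libraries (SD, n = 3 each), 7.30-fold higher. Oas1a averaged 9.29 ± 0.452 FPKM in GPR35-positive and 4.43 ± 0.710 FPKM in GPR35-negative libraries and Oas1g 2.83 ± 0.3497 FPKM in GPR35-positive and 1.48 ± 0.482 FPKM in GPR35-negative libraries (SD, n = 3 each). These rose by 0.93 (SE 0.11, adjusted p = 3.41e-05) and 0.64 (SE 0.14, adjusted p = 0.00246) on the log2 scale. Their coding sequences are 96.8% identical, so their separate values are uncertain too.

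The nucleic acid sensors ranged from a 10.2-fold increase to the largest decrease among the 38 genes tested of the list. Ifi204, a DNA sensor of the PYHIN family, had 18.4, 17.9 and 18.8 FPKM in the GPR35-positive libraries, against 2.07, 1.97 and 1.37 FPKM in GPR35-negative libraries, and the change on the log2 scale was 2.80 (SE 0.11, adjusted p = 5.4e-09). Ifi205, of the same family, averaged 3.09 ± 0.297 FPKM in GPR35-positive and 0.389 ± 0.0694 FPKM in GPR35-negative libraries (SD, n = 3 each). The RNA helicases of the RIG-I family differed in size of change. Ifih1, which encodes MDA5, averaged 9.43 ± 0.362 FPKM in GPR35-positive and 2.24 ± 0.217 FPKM in GPR35-negative libraries, 4.20-fold higher (SD, n = 3 each, log2 fold change 1.69, SE 0.09, adjusted p = 4.99e-08). Dhx58, which encodes their regulator LGP2, averaged 2.63 ± 0.327 FPKM in GPR35-positive and 0.416 ± 0.196 FPKM in GPR35-negative libraries, 6.32-fold higher. Ddx58, which encodes RIG-I itself, averaged 3.01 ± 0.263 FPKM in GPR35-positive and 2.17 ± 0.152 FPKM in GPR35-negative libraries, 1.39-fold higher (SD, n = 3 each, log2 fold change 0.34, SE 0.09, adjusted p = 0.00596). Zbp1, a sensor of Z-form nucleic acid that can start cell death, averaged 14.3 ± 0.471 FPKM in GPR35-positive and 8.25 ± 0.668 FPKM in GPR35-negative libraries, 1.73-fold higher (adjusted p = 3.18e-05).

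Eif2ak2, which encodes the double-stranded RNA-activated kinase PKR, fell. It had 2.84, 2.60 and 3.11 FPKM in the GPR35-positive libraries, against 4.17, 4.34 and 3.34 FPKM in GPR35-negative libraries. The groups did not overlap, with GPR35-negative replicate 3 nearest to the GPR35-positive libraries. Eif2ak2 fell by 0.36 on the log2 scale (SE 0.10, adjusted p = 0.0103), and with median-of-ratios scaling the value was −0.21 (adjusted p = 0.107). Adar, which encodes an RNA-editing enzyme that keeps self RNA from being sensed, had 1.27, 1.77 and 1.93 FPKM in the GPR35-positive libraries, against 1.19, 1.64 and 1.05 FPKM in GPR35-negative libraries. The groups overlapped, and the log2 fold change of 0.21 (SE 0.12, adjusted p = 0.144) did not pass. Median-of-ratios scaling brought Adar past the threshold (0.33, adjusted p = 0.043), as did a fit without GPR35-positive replicate 1 or GPR35-negative replicate 2 (adjusted p = 0.0375 and 0.0482). Adar shares 16.8% of its exon bases with Chrnb2 on the other strand.

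Among the antiviral effectors tested, 6 of 7 rose and Bst2 fell. Rsad2, which encodes viperin, had 39.9, 39.8 and 41.8 FPKM in the GPR35-positive libraries, against 5.43, 4.74 and 4.09 FPKM in GPR35-negative libraries, and the change on the log2 scale was 2.86 (SE 0.09, adjusted p = 1.95e-09). Cmpk2, its neighbour on chromosome 12 and a mitochondrial nucleotide kinase, had 5.36, 7.68 and 7.07 FPKM in the GPR35-positive libraries, against 1.99, 2.01 and 1.75 FPKM in GPR35-negative libraries, a smaller increase of 3.49-fold. Trim30a, Slfn8 and Samd9l averaged 5.05 ± 0.540, 4.38 ± 0.435 and 6.47 ± 0.611 FPKM in the GPR35-positive libraries, against 0.529 ± 0.070, 0.421 ± 0.0276 and 2.52 ± 0.577 FPKM in GPR35-negative libraries (SD, n = 3 each). Trim30a encodes a tripartite motif protein, Slfn8 belongs to the schlafen family and Samd9l restrains translation. The coding sequence of Trim30a is 90.3% identical to that of Trim30d, and that of Slfn8 92.7% identical to that of Slfn9. The division of reads within these pairs is therefore uncertain. Isg20, an RNA exonuclease, averaged 39.7 ± 2.83 FPKM in GPR35-positive and 16.9 ± 0.178 FPKM in GPR35-negative libraries, 2.35-fold higher (SD, n = 3 each, log2 fold change 1.19, SE 0.07, adjusted p = 2.39e-07). Mx1, Mx2 and Slfn5 were below the filter. Slfn5 ranged from 0.849 to 1.09 FPKM in GPR35-positive and from 0.0602 to 0.149 FPKM in GPR35-negative libraries, Mx1 from 0.708 to 0.745 FPKM in GPR35-positive and 0.207 to 0.310 FPKM in GPR35-negative libraries, and Mx2 from 0.726 to 0.905 FPKM in GPR35-positive and 0.528 to 0.703 FPKM in GPR35-negative libraries. All 3 were higher in every GPR35-positive library, and without a filter Slfn5 and Mx1 passed (adjusted p = 7.35e-05 and 0.000425) and Mx2 did not (adjusted p = 0.119).

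Bst2, which encodes tetherin, a membrane protein that holds budding virus at the cell surface, was abundant in all libraries. It had 67.7, 67.9 and 71.4 FPKM in the GPR35-positive libraries, against 80.8, 79.7 and 77.9 FPKM in GPR35-negative libraries. The groups were narrow and did not overlap. Bst2 fell by 0.20 on the log2 scale (SE 0.06, adjusted p = 0.0152), close to the median of −0.19 of all genes tested. With median-of-ratios scaling its log2 fold change was −0.01 (adjusted p = 0.942), and the call also ended without GPR35-negative replicate 2 (adjusted p = 0.0553). Its ratio of 0.868 lay above the 0.655 of the summed hepatocyte and hepatoma markers and far below the 9.85 of the summed pan-leukocyte markers.

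**Figure D2:**
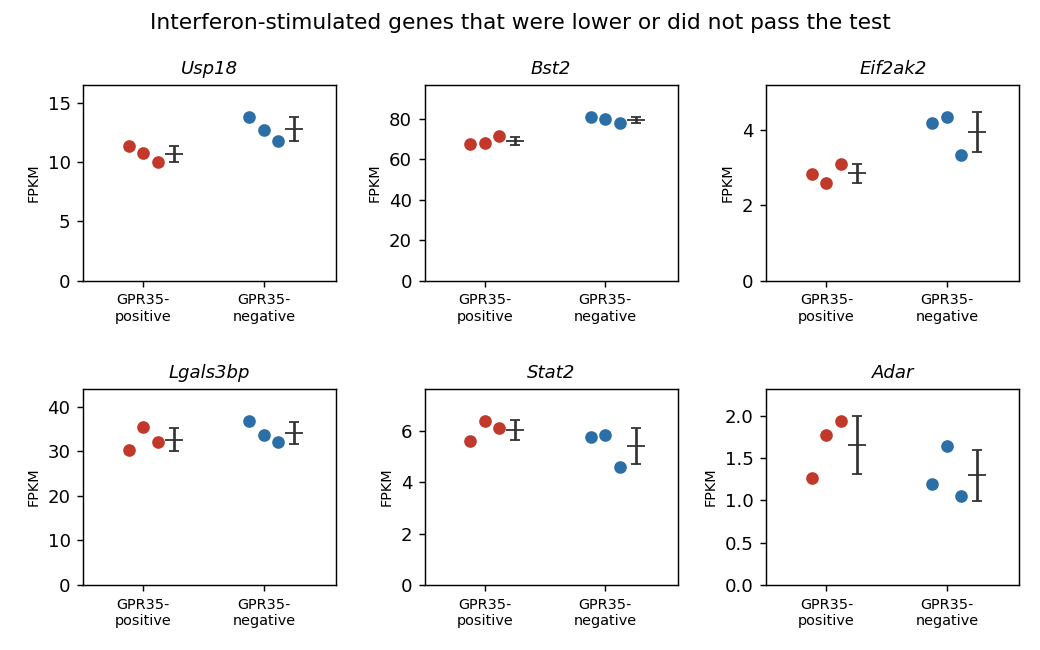
FPKM of the 6 genes that were lower in GPR35-positive libraries (Usp18, Bst2, Eif2ak2) or did not pass the test (Lgals3bp, Stat2, Adar), from 0 on each axis. Points are libraries, 3 a group, and the bars beside them are the mean ± SD; the groups are apart in the upper row and overlap in the lower row.

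The genes around PARP9 and PARP14, ADP-ribosyltransferases, and DTX3L, the ubiquitin ligase partner of PARP9, rose together by 1.63-fold to 4.10-fold. Parp14 averaged 1.56 ± 0.0696 FPKM in GPR35-positive and 0.381 ± 0.0501 FPKM in GPR35-negative libraries. Parp9 averaged 5.63 ± 0.387 FPKM in GPR35-positive and 2.55 ± 0.185 FPKM in GPR35-negative libraries, and Dtx3l 3.07 ± 0.244 FPKM in GPR35-positive and 1.88 ± 0.230 FPKM in GPR35-negative libraries (SD, n = 3 each). Their log2 fold changes were 0.89 (SE 0.07), 0.90 (SE 0.09) and 0.50 (SE 0.09), with adjusted p-values of 2.1e-06, 9.5e-06 and 0.000888. Parp9 and Dtx3l lie head to head on opposite strands of chromosome 16 and share 458 exon bases; no source used here says whether the counting used strand.

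Of the 6 remaining induced genes, 4 rose, Lgals3bp did not pass and Ifi44 was below the filter. Rtp4, which encodes a chaperone of receptor transport, had 45.2, 39.1 and 46.9 FPKM in the GPR35-positive libraries, against 7.73, 7.37 and 5.78 FPKM in GPR35-negative libraries. The change on the log2 scale was 2.49 (SE 0.11, adjusted p = 1.44e-08). Ifi47, an interferon-inducible GTPase that interferon gamma also induces, averaged 47.3 ± 3.29 FPKM in GPR35-positive and 30.6 ± 2.24 FPKM in GPR35-negative libraries, 1.55-fold higher. Ifi35 averaged 20.4 ± 1.63 FPKM in GPR35-positive and 14.2 ± 0.823 FPKM in GPR35-negative libraries, 1.44-fold higher, and Xaf1, a partner of the inhibitor of apoptosis XIAP, 5.53 ± 0.498 FPKM in GPR35-positive and 3.20 ± 0.199 FPKM in GPR35-negative libraries, 1.73-fold higher (SD, n = 3 each). These 3 increases were larger than the spread between replicates (adjusted p = 9.37e-05, 0.000503 and 0.000159). Rtp4 shares 13.9% of its exon bases with Gm45338 on the same strand, and Ifi35 shares 16.8% with Gm11626 on the other strand. Lgals3bp, a secreted glycoprotein, had 30.4, 35.4 and 32.1 FPKM in the GPR35-positive libraries, against 36.7, 33.6 and 32.0 FPKM in GPR35-negative libraries, and the groups overlapped (log2 fold change −0.06, SE 0.08, adjusted p = 0.508). Ifi44 had 0.238, 0.260 and 0.339 FPKM in the GPR35-positive libraries, against 0.265, 0.135 and 0.135 FPKM in GPR35-negative libraries, and overlapped as well.

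Set beside the marker genes, the 43 genes spread over the range between leukocyte and hepatocyte transcripts. The following division was made after the values were seen and is a description. The ratios of mean FPKM of the 15 pan-leukocyte markers ran from 4.27 to 13.7, and 16 of the 43 genes fell inside that range, from 5.98 for Oasl2 to 11.2 for Ifit3b. These were the 4 IFIT genes, Isg15, Rsad2, Oas2, Oas3, Oasl2, Dhx58, Ifi204, Ifi205, Trim30a, Slfn5, Slfn8 and Rtp4. Just below the range stood Ifih1 at 4.20, Irf7 at 4.10 and Parp14 at 4.10. In all, 23 genes lay between the leukocyte and hepatocyte ranges, from 1.11 for Stat2 to 4.20 for Ifih1. The 10 hepatocyte and hepatoma markers had ratios from 0.454 to 0.987, and Lgals3bp, Bst2, Usp18 and Eif2ak2 lay inside that range at 0.957, 0.868, 0.839 and 0.721. The median ratio of all genes tested, 0.852, lay inside it too, as did the T cell markers Cd3d and Cd8a at 0.949 and 0.907. A ratio in that range is therefore not particular to hepatocyte transcripts. None of the 43 reached the median ratio of 30.4 of the 9 macrophage markers tested, and the median ratio of the 10 mature neutrophil markers was 10.1. Those neutrophil markers ran from 5.30 to 12.2, a range that also held the 16 genes. Between the leukocyte and hepatocyte ranges lay the 3 fibroblast markers tested as well, at 1.46 to 2.20, with Pecam1 at 1.32 and Ccr7 at 2.27.

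**Figure D3:**
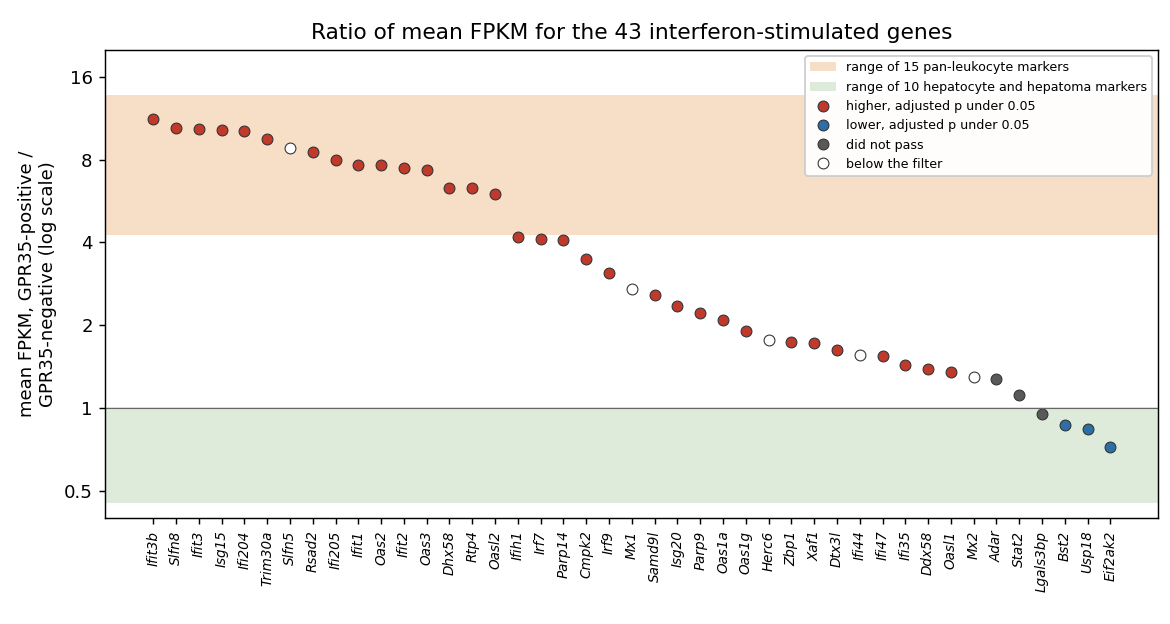
Ratio of mean FPKM in GPR35-positive over GPR35-negative libraries for each of the 43 genes, on a log axis, in falling order, with colour for the call of the limma test. Shaded bands give the range of ratios of 15 pan-leukocyte markers (4.27 to 13.7) and of 10 hepatocyte and hepatoma markers (0.454 to 0.987). In the upper band lie 16 genes and in the lower 4, where the median ratio of all genes tested, 0.852, also falls.

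The size of the increases was also set beside the level in GPR35-negative libraries. Of the 38 tested, 8 averaged at least 10 FPKM there, and 2 of the 8, Isg15 and Isg20, were at least 2-fold higher in GPR35-positive libraries, with a median ratio of 1.39. Of the 30 below 10 FPKM, 22 were at least 2-fold higher, with a median ratio of 4.15. These 22 include the 8 genes that reached the filter through the GPR35-positive libraries alone, with ratios of 4.10 to 11.2. The filter itself favoured high ratios for those 8, and the share of all genes at these levels was not counted. The level in GPR35-negative libraries is the lower part of the ratio, so the 2 measures are not independent. Oasl1 made up 13.7% to 14.0% of the summed level of the 43 genes in GPR35-positive and 22.1% to 24.8% in GPR35-negative libraries. Bst2 made up 7.96% to 8.36% in GPR35-positive and 20.4% to 21.9% in GPR35-negative libraries. The summed level was 850, 819 and 855 FPKM in GPR35-positive libraries and 395, 364 and 357 FPKM in GPR35-negative libraries, 2.26-fold higher.

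Variation among replicates was modest for most of the genes. Over the 38 genes tested, the coefficient of variation had a median of 7.97% in GPR35-positive and 12.6% in GPR35-negative libraries. Its highest values were 20.9% in GPR35-positive and 52.8% in GPR35-negative libraries, where Oas3, the most variable gene, was covered by 11 to 40 reads. Among the GPR35-negative libraries, replicate 1 held the highest value of 27 of the 38 genes and replicate 3 the lowest of 25. How many of all genes tested follow this order was not counted. In the same libraries the pan-leukocyte markers summed to 324 FPKM in replicate 1, 279 in replicate 2 and 235 FPKM in replicate 3. The fall was not particular to them, as the fibroblast markers summed to 12.8, 12.7 and 9.25 FPKM in the same order. The hepatocyte and hepatoma, endothelial and conventional dendritic cell sums were instead lowest in GPR35-negative replicate 2. Among the GPR35-positive libraries the highest value was spread more evenly, with 13, 12 and 13 genes for replicates 1, 2 and 3. The part of leukocyte RNA in these differences was not tested.

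The interferons themselves were barely covered by reads in any library. Of 21 interferon genes in the table, 11 were at 0 in all 6 libraries and 1, Ifng, reached the filter. Ifnb1, which encodes interferon beta, had 6, 3 and 13 reads in GPR35-positive libraries and 0 in each GPR35-negative library, or 0.467, 0.245 and 0.946 FPKM against 0. Exact Poisson intervals (95%, for counting error alone) spanned 0.619 to 22.2 reads across the GPR35-positive libraries and reached 3.69 reads in each GPR35-negative library. Every GPR35-positive library thus held reads of Ifnb1, at a depth that gives its level little precision. The interferon alpha genes above 0 were Ifna2, Ifna4, Ifna5 and Ifna13, with at most 4 reads in a library. Ifne, Ifnk, Ifnz and Ifnl2 were at most at 0.360 FPKM. Ifng, the type II interferon gene, had 1.35, 1.32 and 1.90 FPKM in the GPR35-positive libraries, against 1.84, 1.78 and 1.96 FPKM in GPR35-negative libraries, and did not pass (log2 fold change −0.19, SE 0.10, adjusted p = 0.116).

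Both receptor chain genes of type I interferon, Ifnar1 and Ifnar2, and the kinase gene Jak1 rose by similar amounts. Ifnar1 had 48.4, 48.0 and 44.5 FPKM in the GPR35-positive libraries, against 22.5, 24.4 and 21.5 FPKM in GPR35-negative libraries, and the change on the log2 scale was 1.01 (SE 0.07, adjusted p = 9.28e-07). Ifnar2 averaged 27.3 ± 0.825 FPKM in GPR35-positive and 13.4 ± 1.10 FPKM in GPR35-negative libraries and Jak1 38.2 ± 3.73 FPKM in GPR35-positive and 18.1 ± 1.42 FPKM in GPR35-negative libraries (SD, n = 3 each). The 3 genes were therefore 2.05-fold to 2.11-fold higher in GPR35-positive libraries. Tyk2 missed the filter, with 0.893 to 1.43 FPKM in GPR35-positive and 0.592 to 0.954 FPKM in GPR35-negative libraries. Of the receptor genes of other interferons, Ifngr2 and Il10rb rose by 0.33 and 0.91 on the log2 scale, Jak2 rose by 1.63, Ifngr1 fell by 0.21 (adjusted p = 0.0133, and 0.866 with median-of-ratios scaling) and Ifnlr1 did not pass (adjusted p = 0.317).

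Over 108 other genes of the interferon pathway found in the table, 75 reached the filter, of which 49 rose and 7 fell. Of all genes tested, 23.3% were higher and 45.5% lower, and the median log2 fold change of the 75 was 0.71. Some of the 49, among them Tlr7, Tlr9 and Ifi207, were under 1 FPKM in every GPR35-negative library. They reached the filter through the GPR35-positive libraries alone and could hardly have been called lower. With median-of-ratios scaling 54 of the 75 rose and 2 fell, beside 29.0% and 23.9% of all genes tested. Of 14 sensors, adaptors and interferon regulatory factors tested, 8 rose and Mavs fell, and with median-of-ratios scaling 10 rose and no gene was called lower. Irf5, a factor of Toll-like receptor signalling in myeloid cells, had the largest log2 change, averaging 35.5 ± 2.70 FPKM in GPR35-positive and 3.68 ± 0.189 FPKM in GPR35-negative libraries (SD, n = 3 each, log2 fold change 2.96, SE 0.08, adjusted p = 1e-09). Trim25, the endosomal receptor genes Tlr7 and Tlr9, Myd88 and the kinase gene Tbk1 rose by 1.57, 1.30, 1.27, 0.95 and 0.82. Mavs, the adaptor of RIG-I and MDA5, averaged 14.0 ± 0.878 FPKM in GPR35-positive and 18.6 ± 2.09 FPKM in GPR35-negative libraries and fell by 0.38 (adjusted p = 0.00453, and 0.0939 with median-of-ratios scaling). Of 9 inhibitors of the response tested, 5 rose and 2, Irf2bp1 and Ptpn11, fell. Under median-of-ratios scaling Ptpn11 lost its call (−0.10, adjusted p = 0.361) while Irf2bp1 kept it (adjusted p = 0.00325). Samhd1, a nucleotide triphosphatase, averaged 73.0 ± 1.80 FPKM in GPR35-positive and 16.1 ± 0.0819 FPKM in GPR35-negative libraries, and the phosphatase genes Ptpn1 and Ptpn6 and Pias1 rose by 1.30, 0.70 and 1.18. Socs1 and Socs3, which encode feedback inhibitors of JAK kinases, averaged 15.7 ± 1.59 and 172 ± 34.3 FPKM in the GPR35-positive libraries, against 12.1 ± 3.34 and 175 ± 14.6 FPKM in GPR35-negative libraries (SD, n = 3 each). Neither passed (adjusted p = 0.0606 and 0.798), though Socs1 did with median-of-ratios scaling (0.56, adjusted p = 0.0161).

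Of 42 further interferon-stimulated genes tested, 29 rose, 3 fell and 10 did not pass, and with median-of-ratios scaling 31 rose and 1 fell. Some of the 29, Ifi207 among them, reached the filter through the GPR35-positive libraries alone. The schlafen genes Slfn2, Slfn4 and Slfn1 had the largest log2 changes, rising by 3.54, 3.39 and 3.21 on the log2 scale, followed by the PYHIN gene Ifi207 at 2.81, the membrane protein genes Ifitm1 at 2.63 and Ifitm6 at 2.56 and Epsti1 at 1.79. Slfn2 had 274, 272 and 274 FPKM in the GPR35-positive libraries, against 27.6, 21.7 and 19.3 FPKM in GPR35-negative libraries. Ifitm3, a relative of Ifitm1 that blocks virus entry, was the most abundant gene of this group and fell. It averaged 842 ± 47.9 FPKM in GPR35-positive and 1101 ± 51.9 FPKM in GPR35-negative libraries (SD, n = 3 each, log2 fold change −0.39, SE 0.07, adjusted p = 0.001), and with median-of-ratios scaling the adjusted p was 0.0499. Ifi27l2b and Mov10 were the other 2 that fell, by 0.42 and 0.44. Median-of-ratios scaling ended both calls, at adjusted p = 0.0884 and 0.122, and the groups of Mov10 overlapped. Ube2l6, the conjugating enzyme of ISG15, did not pass at 26.0 ± 1.80 FPKM in GPR35-positive and 28.5 ± 1.99 FPKM in GPR35-negative libraries, while Uba7, the activating enzyme, averaged 5.06 ± 0.408 FPKM in GPR35-positive and 1.78 ± 0.268 FPKM in GPR35-negative libraries, 2.84-fold higher (SD, n = 3 each). Ifitm3, Ifi27l2b, Mov10, Mavs, Ube2l6, Uba7, Socs1, Socs3 and Ifitm6 were picked out after their values were seen.

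**Figure D4:**
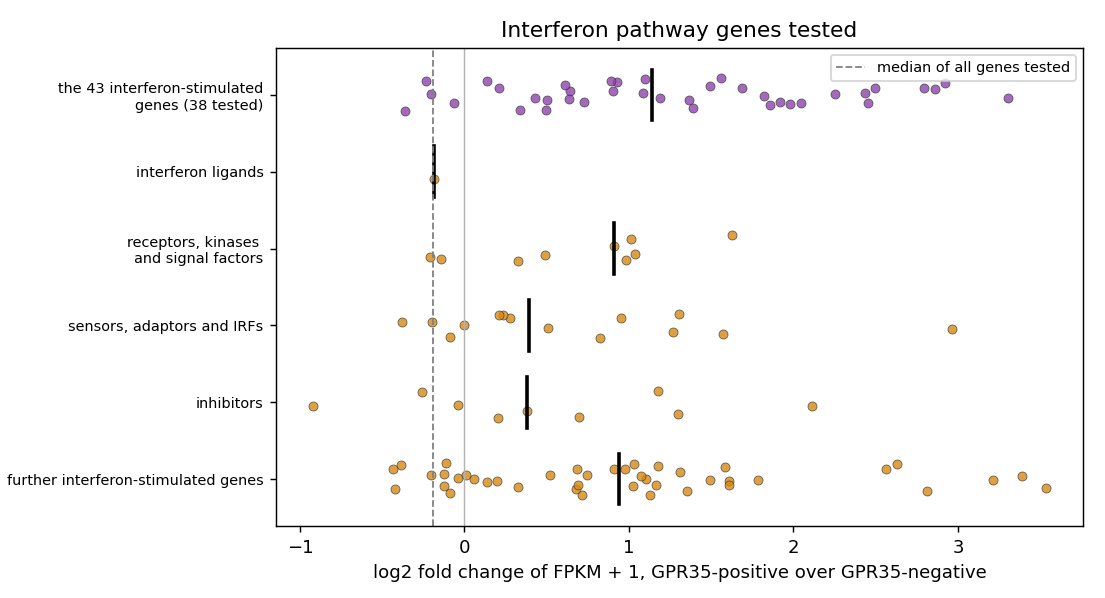
Log2 fold change of FPKM + 1, GPR35-positive over GPR35-negative, for the 38 interferon-stimulated genes tested (top row) and the 75 other pathway genes tested, by group. Each point is 1 gene, the thick bar is the median of a row, the dashed line is the median of all genes tested (−0.19), and vertical scatter has no meaning; the median is 1.14 in the top row.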

How the data were processed

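The authors deposited 1 table of FPKM per gene and library, per the file headers; this unit divides fragments by gene length and by library depth. The submitters' processing notes list, with no roles, DESeq 1.38.3, HTSeq 0.9.1, HISAT2 2.1.0 and fastp 0.22.0, and a human build, while the table holds mouse gene IDs. Per the labels' protocols, Trizol RNA went into NEBNext Ultra II libraries. Symbols and exon lengths came from GENCODE M21 (GRCm38), which held 21851 of 21959 IDs. With these lengths 97.7% of values above 0 gave whole reads within 0.02 reads, for totals of 15742744 to 18314104 reads a library. Same-group libraries differed by more than sampling noise (mean chi-square per gene 5.61 to 23.2).

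Two-sided limma-trend (limma 3.58.1, R 4.3.3) was run on log2(FPKM + 1) over genes that reached 1 FPKM in 3 or more libraries, with no covariate beside group; p-values were adjusted by Benjamini-Hochberg across 10060 genes. Adjusted p-values are from this fit unless an alternative is named. Alternatives were median-of-ratios scaling, a pseudocount of 0.1, other filters, limma-voom on recovered reads, a replicate block and leaving out each library. The genes and lists were chosen with earlier results of these data known. Full values were given for the largest increases of each role and every gene that fell or did not pass; of the other pathway genes, every ligand, receptor and kinase above 0 and up to 6 of each other group with the smallest p. Mb21d1 was read as Cgas by its RefSeq synonym, and 2 listed names had no row of their own. For 1 listed pathway gene the values are not reported here. The test was checked on simulated libraries in which few genes differed, equally in both directions, so that check does not bear on the scaling.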

Additional observations from a re-analysis of the deposited data

How the results depend on the processing

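Of the 38 interferon-stimulated genes tested, 32, all of them higher in GPR35-positive libraries, kept their direction and call under every alternative in which they were tested. The number that rose was 32, and 30 to 35 over the alternatives, and the number at least 2-fold higher was 24, and 22 to 26. For the second range, the number over all genes was not counted under the alternatives. The ends of the first range come from other numbers of genes tested. The 35 was of all 43 genes with no filter, beside 3440 of 19818 genes in all. The 30 was of the 36 genes that averaged at least 1 FPKM, where no call changed, beside 2192 of 9853 genes in all. The number that fell, 3, was 0 with median-of-ratios scaling, and ranged from 1 to 3 with 1 library left out, with 1 without GPR35-negative replicate 2. Of the other pathway genes 7 fell, with 2 under median-of-ratios scaling and 4 to 8 with 1 library left out, 4 of them without GPR35-negative replicate 2. Without that replicate 3934 of 10060 genes in all fell, against 4575 with no library left out. Lgals3bp turned to 0.13 with median-of-ratios scaling (adjusted p = 0.201); that scaling divides by size factors that differ between the groups. A replicate block changed no call among the 38 genes, with 32 higher and 3 lower, and 50 pathway genes higher and 8 lower. Beside these, 2365 of 10060 genes in all were higher with the block and 4633 lower. The numbers were not taken to pair libraries: same-numbered deviations correlated at 0.00, 0.40 and −0.06, and not every library correlated best with its own number. limma-voom left out Isg15, whose reads did not come out whole. For genes below 1 FPKM depth limits the precision, as for Ifnb1.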
